A study of Mus musculus with 4 samples.

Results

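The genes described here are 38 enzymes of glycolysis, of the fates of pyruvate, of the citrate cycle and of their side branches, read in mouse pancreatic islets on 4 one-colour Agilent arrays, 1 array per group. Members were found by the gene name in the scanner files, where Pkm is named Pkm2, and a gene with several probes was read from the one whose mean log2 processed signal was highest. This gave 38 of the 22191 genes with a RefSeq symbol on the array. All groups were islets of C57BL/6 mice aged 24 weeks, freed by collagenase, purified on a gradient and hand-picked. They were transgenic males profiled 6 weeks after an E2 implant (male Tg E2), transgenic females (female Tg), transgenic males without an implant, called diabetic in the labels (male Tg) and wild-type males (male WT). E2 stands for estradiol. The labels used here name neither the transgene nor its promoter, and they do not say how many mice an array stands for. Group and array therefore cannot be told apart, no p-value is given, and every difference below is one between single arrays.

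Glycolysis splits glucose into pyruvate in the cytosol. Beta cells use this route as a fuel sensor, and pyruvate enters the mitochondria both through the pyruvate dehydrogenase complex and through pyruvate carboxylase, which refills the citrate cycle. Mature beta cells normally keep lactate dehydrogenase A and the low-Km hexokinases low, and they pass cytosolic NADH to the mitochondria through the glycerol phosphate and malate-aspartate shuttles. Several steps are served by isozymes that are named for the tissue where they prevail, such as the liver, muscle and platelet forms of phosphofructokinase.

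A level is the log2 processed signal of the probe minus the 75th percentile of its array, and can be compared between arrays but not between genes. Of the 38 genes, 35 were well above background on all 4 arrays by the scanner software's call. Hk2 was so on 2 arrays and Pklr on 3, and Pgam2, the muscle form of phosphoglycerate mutase, on none, so that no difference is given for Pgam2. The error given with a difference is a standard error from the scanner software's error model, which covers array noise and not variation between mice. Its median over the members was 0.204 log2 in each of the 4 comparisons. Pfkm, the muscle form of phosphofructokinase, was spotted 10 times on each array. Its spots gave 3.02 ± 0.0545 on the male Tg E2 array, 3.06 ± 0.0457 on the female Tg array, 2.65 ± 0.059 on the male Tg array and 3.30 ± 0.0373 on the male WT array (SD over 10 spots, not over mice). Spots of 1 probe thus lay far closer together than the male Tg and male WT arrays did for this gene. All 10 beta cell markers examined, Ins1, Ins2 and Pdx1 among them, were well above background on every array.

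The 38 genes passed 2-fold about as often as other genes in male Tg over male WT. In male Tg over male WT, 4 of 36 measured members were at least 2-fold higher, where 15.7% of all measured genes were, and 5 were at least 2-fold lower, where 8.68% of all genes were. Together that is 25% of the members against 24.3% of all genes. The 4 higher genes were Pklr, Gpd1, Fbp1 and Fbp2, and the 5 lower ones Eno2, Eno3, Ldhb, Pcx and Pck2. Hk2 was higher by an "at least" value, a lower bound that takes the faint probe at no less than the weakest clear signal of its array. The median difference was -0.02 log2 over the members and -0.21 over all measured genes.

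In male Tg E2 over male Tg, 2 of 37 measured members (5.41%) were at least 2-fold lower, Pfkp (by the probe used) and Fbp2, and 0 were at least 2-fold higher. Of all measured genes, 8.02% were lower and 2.54% higher to that extent, together 10.6%. The median was -0.11 log2 over the members and 0.12 over all genes. In female Tg over male Tg, 4 of 35 were at least 2-fold lower (Cs, Gpd1, Fbp2 and Pck1) and 1 higher (Pcx), with Pklr lower by an "at least" value. The corresponding shares of all genes were 8.60% and 3.51%, together 12.1%, against 14.3% of the members. Here the median was -0.31 log2 over the members and 0.10 over all genes. In male Tg E2 over male WT, 1 of 36 was at least 2-fold higher, Fbp1, and 1 lower, Pcx. Shares of all genes were 8.83% and 2.63%, together 11.5%, against 5.56% of the members. The medians were -0.18 and -0.09 log2. The comparisons share arrays, male Tg being in 3 of them, so their values are given side by side and not as separate support for one another.

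**Figure D1:**
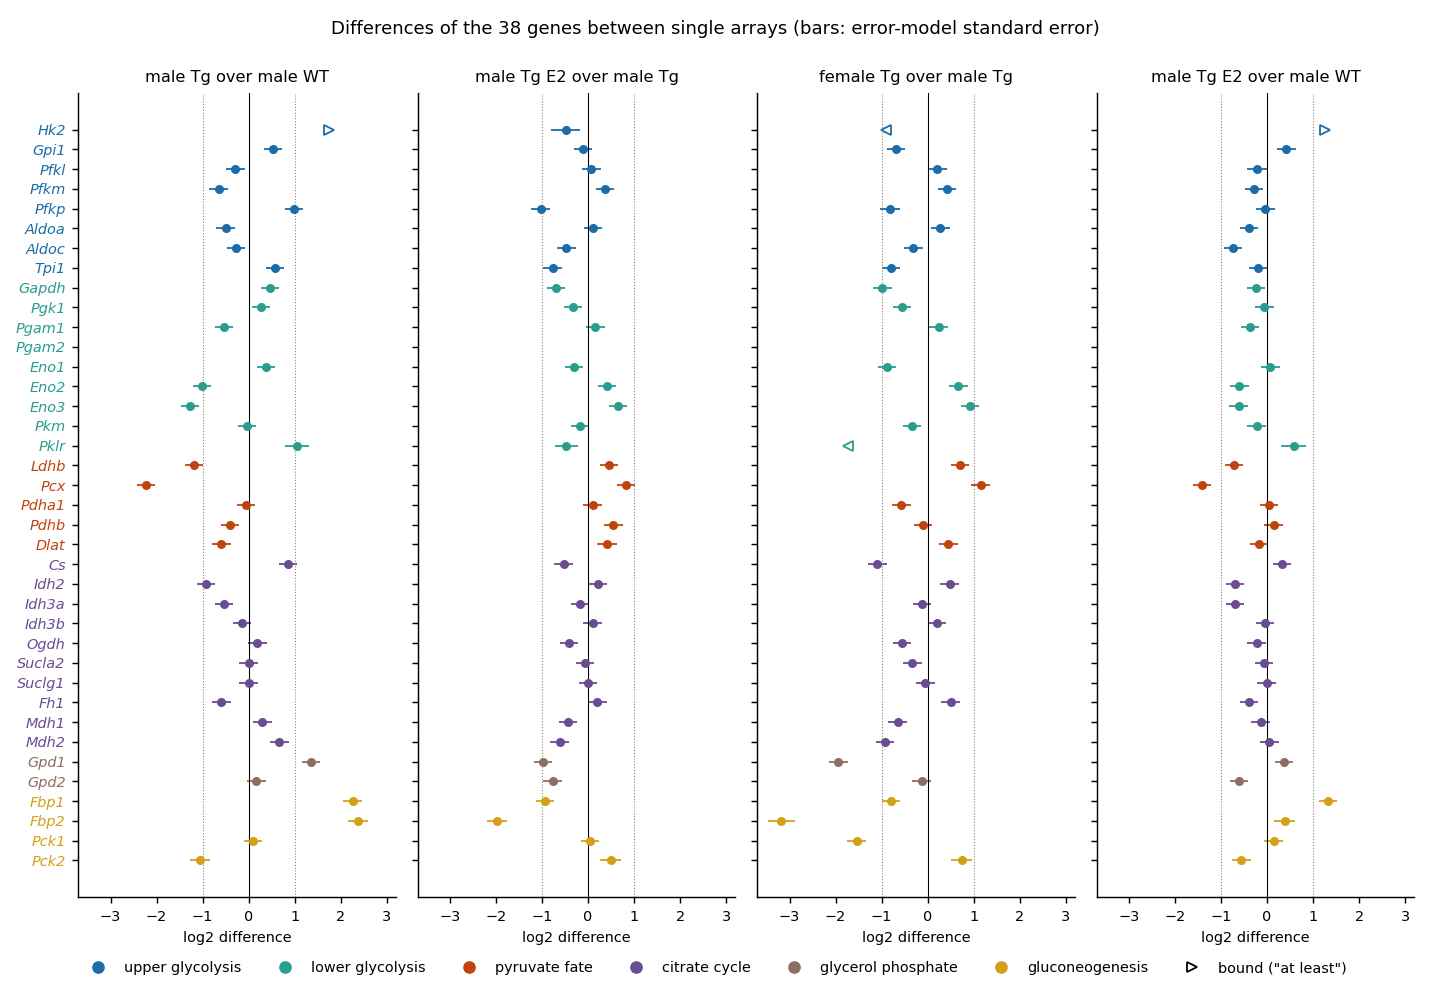
Log2 difference of each of the 38 genes in the 4 comparisons, coloured by role, with the error-model standard error as bars, dotted lines at 2-fold and open triangles for "at least" values. Most points lie between the 2-fold lines, and the largest differences are those of Pcx (-2.23), Fbp1 (2.26) and Fbp2 (2.37) in male Tg over male WT and of Fbp2 (-3.18) in female Tg over male Tg.

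The upper steps of glycolysis were measured by 8 genes, and 0 of the 7 measured on both arrays passed 2-fold in male Tg over male WT (median -0.27 log2). Hexokinase 2, the insulin-responsive hexokinase of muscle and fat, was the exception among the 8. Its probe (chr6:82675056-82675115, mm9) read -3.01 on the male Tg E2 array, -4.28 on the female Tg array, -2.52 on the male Tg array and -6.20 on the male WT array. Hk2 cleared background on the male Tg E2 and male Tg arrays and on no other. That makes it at least 3.34-fold higher on the male Tg array and at least 2.38-fold higher on the male Tg E2 array than on the male WT array, and at least 1.88-fold lower in female Tg over male Tg. Between male Tg E2 and male Tg it differed by -0.49 ± 0.32 log2. On the male Tg E2, female Tg, male Tg and male WT arrays, the summed level of adipocyte markers was 3.02, 2.21, 4.41 and 2.08. That of acinar markers was 12.66, 10.48, 13.31 and 10.36, and that of muscle markers -0.17, -0.88, -0.44 and -0.39. The part of these markers in the Hk2 values was not tested. Hk2 is known as a target of hypoxia-inducible factor, whose binding element has the core ACGTG, found in promoter windows of 21.8% of all genes. The window of 250 bases before to 50 after its start (chr6:82774405-82774704, minus strand, RefSeq sequence of GRCm38.p6) is shown because it holds that core at 2 places, beginning at positions -226 and -52 from the start and in capitals as its reverse complement.
Hk2 promoter: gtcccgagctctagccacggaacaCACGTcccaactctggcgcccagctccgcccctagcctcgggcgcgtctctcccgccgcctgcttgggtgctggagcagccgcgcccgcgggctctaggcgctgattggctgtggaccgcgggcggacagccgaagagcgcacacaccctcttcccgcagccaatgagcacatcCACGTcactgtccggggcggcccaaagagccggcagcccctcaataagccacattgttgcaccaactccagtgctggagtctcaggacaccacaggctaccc

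The 3 phosphofructokinase genes encode the committed step of glycolysis, and the probe used for Pfkp differed from Pfkm in the comparisons that include the male Tg array. Pfkp, the platelet form, read 0.40 on the male Tg E2 array, 0.61 on the female Tg array, 1.43 on the male Tg array and 0.44 on the male WT array. This probe was highest on the male Tg array, and the other arrays lay close together. The difference was 0.99 ± 0.20 in male Tg over male WT, just under 2-fold, and -1.03 ± 0.21 in male Tg E2 over male Tg. Pfkm ran the other way, at -0.65 ± 0.20 and 0.37 ± 0.20. Pfkl, the liver form, lay between -0.29 and 0.21 log2 over the 4 comparisons. The difference of Pfkm minus that of Pfkp, a quantity in which a scaling factor of the array cancels, though a quantile adjustment does not, was -1.64 ± 0.29 log2 in male Tg over male WT, 1.40 ± 0.29 in male Tg E2 against male Tg and 1.24 ± 0.29 in female Tg over male Tg. It was -0.24 ± 0.29, within its error, in male Tg E2 over male WT. Pfkm relative to Pfkl lay between -0.37 and 0.31 over the 4 comparisons, against an error of 0.29. A second Pfkp probe went the opposite way. It read -2.75 on the male Tg E2 array, -3.06 on the female Tg array, -3.40 on the male Tg array, where it did not clear background, and -2.34 on the male WT array. By this probe Pfkp was at least 2.10-fold lower in male Tg over male WT (at least 1.07 log2), so the direction for the gene is not settled. The values above rest on the brighter probe, which spans an intron in the file's coordinates (chr13:6581718-6583872, mm9, minus strand).
Pfkp probe: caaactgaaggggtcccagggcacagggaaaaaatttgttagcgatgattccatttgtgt

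Gpi1, Aldoa, Aldoc and Tpi1, which carry glucose 6-phosphate to the triose phosphates, lay between -0.79 and 0.58 log2 throughout. Tpi1, triose phosphate isomerase, was at 0.58 ± 0.20 in male Tg over male WT and at -0.77 ± 0.20 in male Tg E2 over male Tg. Gpi1, glucose-6-phosphate isomerase, was at 0.53 ± 0.20 and -0.11 ± 0.20 in these comparisons. The aldolase genes Aldoa and Aldoc stood at -0.50 and -0.27 in male Tg over male WT, a gap of 0.23 ± 0.29. The gap was wider after quantile normalization (-0.93 and -0.12) and with the series matrix values (-0.92 and -0.12). Aldoc relative to Aldoa differed by -0.58 ± 0.29 when male Tg E2 was set over male Tg and by -0.59 ± 0.29 in female Tg over male Tg.

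Among the lower steps of glycolysis the enolase isozymes separated. Eno2, the enolase of neurons and neuroendocrine cells, read 2.80 on the male Tg E2 array, 3.07 on the female Tg array, 2.40 on the male Tg array and 3.41 on the male WT array (chr6:124710388-124710447, mm9). Eno3, the muscle enolase, read 2.98, 3.25, 2.33 and 3.61 on the same arrays in the same order (chr11:70475953-70476012). Both were lowest on the male Tg array and highest on the male WT array. Beta cell markers moved the same way, with 6 of 10 at least 2-fold lower in male Tg over male WT (median -1.62), and their part in the enolase values was not tested. In male Tg over male WT, Eno2 was 2.01-fold lower (-1.01 ± 0.20 log2) and Eno3 2.42-fold lower (-1.27 ± 0.20). Eno1, the widespread form, was at 0.38 ± 0.20. Relative to Eno1, Eno2 differed by -1.39 ± 0.29 and Eno3 by -1.65 ± 0.29 in male Tg over male WT, and by 1.55 ± 0.29 and 1.79 ± 0.29 in female Tg over male Tg. In male Tg E2 over male Tg these values were 0.72 ± 0.29 and 0.97 ± 0.29. Eno2 and Eno3 themselves differed from each other by no more than 0.27 ± 0.29 in any comparison.

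Of the pyruvate kinase genes, Pkm, the muscle form, lay between -0.34 and -0.04 log2 in all 4 comparisons. Pklr, the liver and red cell form, read -1.95 on the male Tg E2 array, -3.22 on the female Tg array, where it did not clear background, -1.48 on the male Tg array and -2.53 on the male WT array. It was 2.07-fold higher in male Tg over male WT (1.05 ± 0.26 log2) and at least 3.34-fold lower in female Tg over male Tg. The 2-fold call in male Tg over male WT was lost after quantile normalization (0.80), with normexp background modelling (0.71) and with the series matrix values (0.86). Red cell markers moved with it in that comparison. All 4 measured of 5 on the array were at least 2-fold higher (median 2.24 log2), and their summed level was 9.02 on the male Tg array and 6.78 on the male WT array. In male Tg E2 over male WT the same markers were lower (4 of 4, median -1.26) while Pklr was at 0.58 ± 0.27. Their part in the Pklr values was not tested. The Pklr probe (chr3:88948907-88949425, mm9) also spans an intron.
Pklr probe: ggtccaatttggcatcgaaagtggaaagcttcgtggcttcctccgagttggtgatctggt

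Gapdh, the glyceraldehyde 3-phosphate dehydrogenase gene often used as a reference for other transcripts, was not level across the arrays. Its probe read 7.86 on the male Tg E2 array, 7.59 on the female Tg array, 8.57 on the male Tg array and 8.10 on the male WT array. That is 0.47 ± 0.20 log2 in male Tg over male WT, where quantile normalization and the series matrix values turned the sign (-0.17 in each), -0.70 ± 0.20 in male Tg E2 against male Tg and -0.98 ± 0.20 in female Tg over male Tg. With the 75th percentile scaling all 8 Gapdh probes had the same sign in each of these 3 comparisons, between 0.20 and 0.82, between -0.72 and -0.49, and between -1.29 and -0.21. The probe with the highest signal is placed on chromosome 7 in the file, although the gene lies on chromosome 6, and the only Pgk1 probe is placed on chromosome 3 although Pgk1 lies on X. Whether these probes also read processed copies was not tested. Pgk1, phosphoglycerate kinase, and Pgam1, phosphoglycerate mutase, stayed between -0.55 and 0.27 log2.

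**Figure D2:**
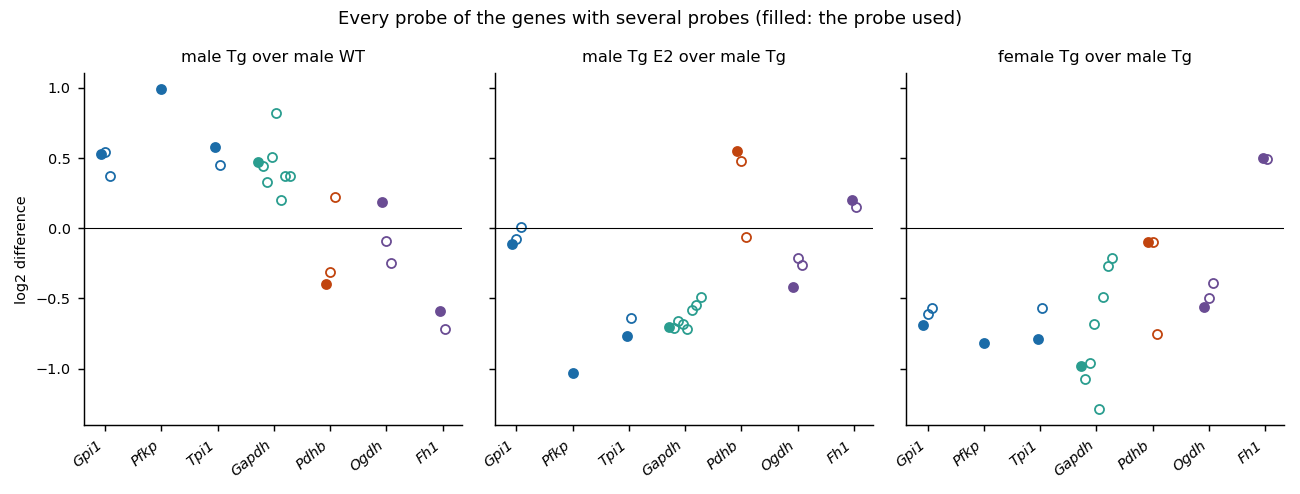
Log2 difference of every probe of the 7 genes with several probes in 3 comparisons, with filled points for the probe used. The 8 Gapdh probes share a sign in each panel, although quantile normalization turned the sign of the probe used in male Tg over male WT (-0.17), whereas the 3 Pdhb probes fall on both sides of 0 in male Tg over male WT, between -0.40 and 0.22.

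Of the 5 genes at the fates of pyruvate, 4 (Ldhb, Pcx, Pdhb and Dlat) stood below 0 under each scaling tried in male Tg over male WT (median of the 5, -0.59 log2) and above 0 in male Tg E2 over male Tg (median 0.46), and Pcx had the largest difference in both. Of all measured genes, 60.8% were below 0 in the first of these comparisons and 59.8% above 0 in the second. Most genes thus shared these signs, and 5 genes are too few to be set apart from that. Pcx encodes pyruvate carboxylase, the mitochondrial enzyme that makes oxaloacetate from pyruvate and is abundant in beta cells. It read 3.79 on the male Tg E2 array, 4.12 on the female Tg array, 2.97 on the male Tg array and 5.20 on the male WT array (chr19:4621610-4621669, mm9). The male WT array was thus the highest and the male Tg array the lowest. Pcx was 4.71-fold lower in male Tg over male WT (-2.23 ± 0.20 log2), a difference that only 0.804% of all measured genes matched or went below. It was 2.22-fold higher in female Tg over male Tg (1.15 ± 0.20) and at 0.82 ± 0.20 in male Tg E2 over male Tg. On the male Tg E2 array it remained 2.66-fold lower than on the male WT array (-1.41 ± 0.20). Pdha1, a subunit of the pyruvate dehydrogenase complex that competes for the same substrate, was at -0.06 ± 0.20 in male Tg over male WT, and at 0.07 after quantile normalization and 0.15 relative to the median of all genes. Pcx relative to Pdha1 differed by -2.18 ± 0.29, and by 1.72 ± 0.29 in female Tg over male Tg. The other subunits Pdhb and Dlat were at -0.40 ± 0.20 and -0.59 ± 0.21 in male Tg over male WT, although 1 of the 3 Pdhb probes had the opposite sign. Beta cell markers moved with Pcx: 6 of 10 were at least 2-fold lower in male Tg over male WT (median -1.62), 3 of 10 higher in male Tg E2 over male Tg (median 0.45) and 4 of 10 higher in female Tg over male Tg (median 0.68). Their summed level, which insulin transcripts can dominate, was 11.35 on the male Tg E2 array, 11.28 on the female Tg array, 11.71 on the male Tg array and 11.37 on the male WT array. Their part in the Pcx values was not tested.

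Pcx has 2 starts in the RefSeq promoter table. The window of the upstream one (chr19:4510222-4510521, plus strand, GRCm38.p6) is shown because Pcx had the lowest difference of the 38 genes in male Tg over male WT. Its capitals mark an E-box, CACGTG, that begins at position -248 from the start and a further ACGTG at -140. The window of the other start is not shown.
Pcx upstream promoter: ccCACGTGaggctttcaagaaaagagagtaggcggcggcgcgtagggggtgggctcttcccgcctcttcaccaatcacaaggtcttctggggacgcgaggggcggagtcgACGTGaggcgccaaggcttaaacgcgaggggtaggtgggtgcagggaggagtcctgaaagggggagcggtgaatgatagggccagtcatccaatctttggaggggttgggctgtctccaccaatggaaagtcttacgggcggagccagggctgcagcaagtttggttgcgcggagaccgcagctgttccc

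Over all members the core ACGTG was found on either strand in a promoter window of 14 of the 36 genes that the table holds (38.9%), against 21.8% of all 27025 genes. By window the shares were 39.6% of 53 and 19.6% of 32851. The E-box CACGTG, which contains that core, was in windows of Fbp2, Ogdh, Pcx and Pfkm (11.1% of 36, against 8.09% of all genes). The TATA box letters TATAAA were in windows of Eno2 and Pklr (5.56%, against 15.7%). Of the members past 2-fold in male Tg over male WT, Hk2 and Fbp2 hold the core and were higher, and Pcx holds it and was lower. No window was given for Gpd1. Whether the core has a part in these differences was not tested.

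Ldhb, the heart-type subunit of lactate dehydrogenase, read 2.21 on the male Tg E2 array, 2.45 on the female Tg array, 1.75 on the male Tg array and 2.93 on the male WT array. It was 2.27-fold lower in male Tg over male WT (-1.18 ± 0.20 log2), and at 0.46 ± 0.20 in male Tg E2 against male Tg and 0.70 ± 0.20 in female Tg over male Tg. Its partner Ldha, no member of the set and known as a gene that beta cells keep low, read 5.0, 4.85, 6.69 and 4.39 on the same arrays in the same order. The gap between the subunits was wide. Ldhb relative to Ldha differed by -3.48 ± 0.29 in male Tg over male WT, by 2.15 ± 0.29 in male Tg E2 against male Tg and by 2.54 ± 0.29 in female Tg over male Tg. In male Tg E2 over male WT it was -1.33 ± 0.29. Of 13 acinar markers, 11 were at least 2-fold higher in male Tg over male WT (median 4.13), where Ldha was higher too. Their summed level was 12.66 on the male Tg E2 array and 10.48 on the female Tg array. It was 13.31 on the male Tg array and 10.36 on the male WT array. In male Tg E2 over male WT 11 of 13 were again higher (median 3.44), while Ldha was at 0.61. In male Tg E2 against male Tg the acinar median was -0.68 and Ldha was at -1.69. Beta cell markers had a median of -1.62 in male Tg over male WT and 0.45 in male Tg E2 over male Tg. In female Tg over male Tg it was 0.68. Ldhb had these signs too. The part of either marker set in the lactate dehydrogenase values was not tested. In islets profiled in bulk, fewer cells of a type and less RNA per cell cannot be told apart.

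**Figure D3:**
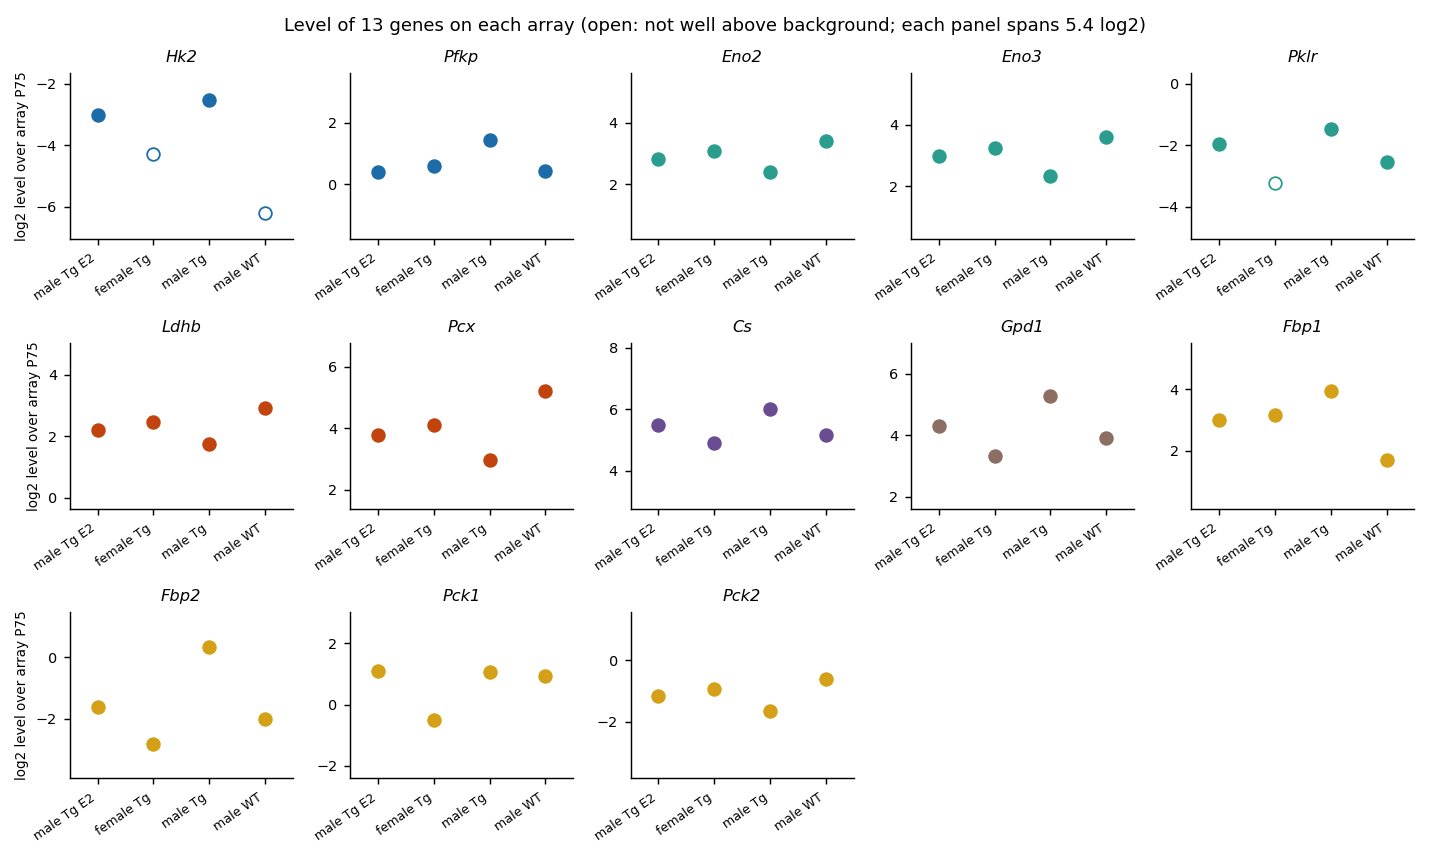
Level of the 13 genes that passed 2-fold in at least 1 comparison on each of the 4 arrays, as log2 processed signal over the array's 75th percentile, with open points where the probe was not well above background. Pcx, Eno2, Eno3, Ldhb and Pck2 are lowest on the male Tg array, and Hk2, Pfkp (by the probe used), Pklr, Cs, Gpd1, Fbp1 and Fbp2 are highest there.

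The 10 citrate cycle genes showed small differences, with 0 of 10 past 2-fold in 3 comparisons and 1 of 10 in female Tg over male Tg. Medians were 0.00 log2 in male Tg over male WT, -0.12 in male Tg E2 over male Tg, -0.23 in female Tg over male Tg and -0.10 in male Tg E2 over male WT. Suclg1, a succinyl-CoA ligase subunit, was the most even, at 3.86 on the male Tg E2 array, 3.81 on the female Tg array, 3.86 on the male Tg array and 3.86 on the male WT array. Sucla2, another subunit of that ligase, lay between -0.33 and 0.00 log2. The gene that passed 2-fold was Cs, citrate synthase, which condenses oxaloacetate with acetyl-CoA. It read 5.49 on the male Tg E2 array, 4.92 on the female Tg array, 6.02 on the male Tg array and 5.17 on the male WT array. Cs was 2.14-fold lower in female Tg over male Tg (-1.09 ± 0.20), a call lost after quantile normalization (-0.84), with the series matrix values (-0.83) and with normexp (-0.96). Cs was at 0.85 ± 0.20 in male Tg over male WT, where Pcx, which supplies its oxaloacetate, was lower, and the gap between Pcx and Cs was -3.08 ± 0.29.

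Among the dehydrogenases of the cycle, Idh2, the mitochondrial NADP-dependent isocitrate dehydrogenase, had the lowest value in male Tg over male WT (-0.92 ± 0.20 log2). It read 5.12 on the male Tg E2 array, 5.37 on the female Tg array, 4.90 on the male Tg array and 5.82 on the male WT array, so the male WT array was highest. The NAD-dependent subunit genes Idh3a and Idh3b were at -0.54 ± 0.20 and -0.14 ± 0.20 in that comparison. Malate dehydrogenase genes ran the other way, with Mdh2, the mitochondrial form, at 0.67 ± 0.20 and Mdh1, the cytosolic form, at 0.30 ± 0.20. In female Tg over male Tg they were at -0.92 ± 0.20 and -0.65 ± 0.20. Mdh1 relative to Mdh2 lay between -0.37 and 0.26 over the 4 comparisons, against an error of 0.29. Fh1, fumarase, was at -0.59 ± 0.20 in male Tg over male WT, and its second probe at -0.72. Ogdh, the E1 subunit gene of the 2-oxoglutarate dehydrogenase complex, was at 0.19 ± 0.20 there, and its 3 probes lay between -0.25 and 0.19.

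The glycerol phosphate shuttle is formed by a cytosolic and a mitochondrial glycerol 3-phosphate dehydrogenase. Gpd1, the cytosolic form, read 4.30 on the male Tg E2 array, 3.34 on the female Tg array, 5.28 on the male Tg array and 3.92 on the male WT array (chr15:99555334-99555393, mm9). The male Tg array was the highest and the female Tg array the lowest. Gpd1 was 2.56-fold higher in male Tg over male WT (1.36 ± 0.20 log2), 3.84-fold lower in female Tg over male Tg (-1.94 ± 0.20), and at -0.98 ± 0.20 in male Tg E2 over male Tg. Gpd2, the mitochondrial form, was at 0.17 ± 0.20, -0.13 ± 0.20 and -0.77 ± 0.20 across these comparisons. Gpd1 relative to Gpd2 differed by 1.19 ± 0.29, -1.81 ± 0.29 and -0.21 ± 0.29. Gpd1 is also abundant in fat. Of the 6 adipocyte markers, 2 were measured in male Tg over male WT, both at least 2-fold higher, and 3 more were higher by an "at least" value. Their summed level was 3.02 on the male Tg E2 array, 2.21 on the female Tg array, 4.41 on the male Tg array and 2.08 on the male WT array. The median of acinar markers was 4.13 in male Tg over male WT and -3.94 in female Tg over male Tg. In male Tg E2 over male Tg it was -0.68. Gpd1 had these signs as well. The part of either marker set in the Gpd1 values was not tested.

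The gluconeogenic genes had the widest differences of the set. Fbp1 and Fbp2 encode fructose 1,6-bisphosphatases, which reverse the phosphofructokinase step, and they are neighbours on chromosome 13 with 0 other protein-coding genes between them in the RefSeq table. Fbp1, the liver form, read 3.01 on the male Tg E2 array, 3.16 on the female Tg array, 3.95 on the male Tg array and 1.69 on the male WT array. All 3 transgenic arrays were above the male WT array. Fbp1 was 4.78-fold higher in male Tg over male WT (2.26 ± 0.20 log2), and 2.50-fold higher in male Tg E2 over male WT (1.32 ± 0.20). It was at -0.94 ± 0.20 in male Tg E2 against male Tg and -0.80 ± 0.20 in female Tg over male Tg. Relative to Pfkm, which encodes the opposing enzyme, Fbp1 differed by 2.91 ± 0.29 in male Tg over male WT and by 1.60 ± 0.29 in male Tg E2 over male WT. Markers of several other cell types were also higher in both comparisons with male WT. Alpha cell markers had 5 of 8 at least 2-fold higher in each (medians 1.51 in male Tg E2 and 1.22 in male Tg), and delta cell markers 3 of 4 (medians 1.18 and 1.35). Stellate and matrix markers had 6 of 6 measured higher (medians 3.74 and 3.96), and acinar markers 11 of 13 (medians 3.44 and 4.13). Lymphocyte markers had 5 of 8 higher in male Tg E2 and 7 of 8 in male Tg (medians 1.63 and 3.5). Macrophage markers had 4 of 6 higher in each (medians 1.3 and 1.1). Of the 4 liver and kidney markers, only Apoa1 was measured in both, at -0.19 in male Tg E2 and 1.40 in male Tg over male WT, while Alb was higher by an "at least" value in both (2.10 and 1.16 log2). On the female Tg array the summed level of acinar markers was 10.48, close to 10.36 on the male WT array. Stellate and matrix markers had 5.54 and 3.13 on these arrays, alpha cell markers 10.04 and 9.61, and delta cell markers 9.99 and 8.94. Liver and kidney markers had 1.63 and 2.95. The part of these markers in the Fbp1 values was not tested.

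Fbp2, the muscle form, read -1.64 on the male Tg E2 array, -2.83 on the female Tg array, 0.34 on the male Tg array and -2.02 on the male WT array. Only the male Tg array was high, whereas Fbp1 stayed above male WT on all 3 transgenic arrays. Fbp2 was 5.16-fold higher in male Tg over male WT (2.37 ± 0.22 log2), 3.96-fold lower in male Tg E2 against male Tg (-1.98 ± 0.22) and 9.04-fold lower in female Tg over male Tg (-3.18 ± 0.29). Fbp1 and Fbp2 differed by about the same amount in male Tg over male WT (gap -0.11 ± 0.30) but not in male Tg E2 over male Tg (1.05 ± 0.30) or female Tg over male Tg (2.38 ± 0.36). Of 7 muscle markers, 2 were measured, Acta1 at 0.33 and Actn3 at -1.05 in male Tg over male WT, and Ckm, Myh1, Myh4, Tnnt3 and Mb were not well above background on either array. The summed level of the 7 was -0.44 on the male Tg array and -0.39 on the male WT array. Acinar markers had the sign of Fbp2 in each comparison but not always its size. Their medians were 4.13 in male Tg over male WT and -0.68 in male Tg E2 against male Tg. In female Tg over male Tg the acinar median was -3.94. In male Tg E2 over male WT it was 3.44, where Fbp2 was at 0.38 ± 0.23. Adipocyte markers, of which 2 or 3 were measured, had medians of 2.01, -1.87, -3.17 and 0.71 in the same order of comparisons. The part of either set in the Fbp2 values was not tested. The Fbp2 probe (chr13:62950852-62955367, mm9, minus strand) spans an intron and is printed first, followed by the promoter windows of both neighbours, shown because the genes lie side by side and were both higher on the male Tg array. The windows are chr13:62858351-62858650 for Fbp2 and chr13:62888233-62888532 for Fbp1 (minus strand, GRCm38.p6). Capitals mark the E-box CACGTG, which begins at position -42 from the Fbp2 start, and none of the 3 motifs was found in the Fbp1 window.
Fbp2 probe: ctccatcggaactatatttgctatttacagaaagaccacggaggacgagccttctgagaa
Fbp2 promoter: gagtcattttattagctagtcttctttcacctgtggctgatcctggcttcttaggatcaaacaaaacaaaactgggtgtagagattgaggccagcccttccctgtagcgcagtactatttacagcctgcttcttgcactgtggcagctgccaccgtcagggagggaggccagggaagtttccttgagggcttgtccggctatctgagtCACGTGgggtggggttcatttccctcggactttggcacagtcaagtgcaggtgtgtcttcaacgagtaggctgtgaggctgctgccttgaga
Fbp1 promoter: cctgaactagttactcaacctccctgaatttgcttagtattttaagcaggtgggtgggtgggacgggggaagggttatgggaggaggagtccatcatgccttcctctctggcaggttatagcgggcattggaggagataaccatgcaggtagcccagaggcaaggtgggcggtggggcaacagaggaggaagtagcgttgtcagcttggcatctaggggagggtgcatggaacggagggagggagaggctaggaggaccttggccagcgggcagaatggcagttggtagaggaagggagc

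Phosphoenolpyruvate carboxykinase, which draws oxaloacetate out of the citrate cycle, has a cytosolic form, Pck1, and a mitochondrial form, Pck2. Pck1 read 1.09 on the male Tg E2 array, -0.49 on the female Tg array, 1.05 on the male Tg array and 0.94 on the male WT array. The 3 male arrays lay within 0.14 log2 of each other and the female Tg array was lower, by 2.90-fold against male Tg (-1.54 ± 0.21). Pck2, spotted 10 times, gave -1.17 ± 0.154 on the male Tg E2 array, -0.93 ± 0.0947 on the female Tg array, -1.67 ± 0.151 on the male Tg array and -0.62 ± 0.0718 on the male WT array (SD over 10 spots). It was 2.07-fold lower in male Tg over male WT (-1.05 ± 0.22), a call lost with normexp (-0.55) and relative to the median of all genes (-0.84). Pck1 relative to Pck2 differed by 1.15 ± 0.30 in male Tg over male WT and by -2.27 ± 0.31 in female Tg over male Tg. In female Tg over male Tg, adipocyte markers (3 of 3 measured at least 2-fold lower, median -3.17) and acinar markers (11 of 13 lower, median -3.94) were lower as well. Of the liver and kidney markers, Apoa1 was at -2.81 and Alb at 0.72. Adipocyte markers had a summed level of 2.21 on the female Tg array and 2.08 on the male WT array. Acinar markers had 10.48 and 10.36 there. Pck1 read -0.49 on the female Tg array and 0.94 on the male WT array. The part of these markers in the Pck1 values was not tested, and sex and array cannot be told apart here.

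A further 70 genes of glucose entry, regulation, transport and adjoining routes, outside the 38, were examined. In male Tg over male WT, 12 of the 64 measured passed 2-fold upwards and 7 downwards (median -0.05 log2), where 15.7% and 8.68% of all genes did. In male Tg E2 over male Tg 2 of 64 were higher and 8 lower (median -0.04), and in female Tg over male Tg 2 of 62 were higher and 7 lower (median -0.20). For male Tg E2 over male WT, 4 of 63 were higher and 3 lower (median -0.18). Shares of all genes in these 3 comparisons were 2.54% and 8.02%, 3.51% and 8.60%, and 8.83% and 2.63%. At the entry of glucose, the hexokinase domain-containing gene Hkdc1 was at 2.26 ± 0.20 in male Tg over male WT. G6pc2, the islet glucose-6-phosphatase subunit, was at -2.68 ± 0.20, whereas G6pc, the liver form, was at 2.33 ± 0.21, a pair that went in opposite directions as Eno1 and Eno2 did. Of the genes that set fructose 2,6-bisphosphate, the activator of phosphofructokinase and inhibitor of the fructose bisphosphatases, Pfkfb3 was at 2.0 ± 0.20 and Pfkfb2 at -1.98 ± 0.21. Pdk4, which inhibits pyruvate dehydrogenase, was at 1.49 ± 0.20 in male Tg over male WT and 2.27 ± 0.20 in male Tg E2 over male WT. Slc16a3, a lactate exporter, was at 1.53 ± 0.20 in male Tg over male WT, -2.23 ± 0.21 in male Tg E2 against male Tg and -2.38 ± 0.21 in female Tg over male Tg. Within the cycle, Ogdhl, an isoform of Ogdh, was at -2.03 ± 0.30 in male Tg over male WT and 1.94 ± 0.31 in female Tg over male Tg, where Ogdh itself was at 0.19 and -0.56.

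Of the 18 measured member differences of at least 2-fold, 12 stayed past 2-fold under all 7 processing alternatives and 0 changed sign. The 12 are those of Pcx, Fbp1, Fbp2 and Gpd1 in each comparison where they passed 2-fold, of Eno3 in male Tg over male WT and of Pck1 in female Tg over male Tg. Those of Eno2, Pklr, Ldhb and Pck2 in male Tg over male WT, Pfkp in male Tg E2 against male Tg and Cs in female Tg over male Tg fell below 2-fold under at least 1 alternative. Leaving out the background filter, keeping only probes above the array median and averaging a gene's probes gave these 18 values unchanged. Only the other alternatives could have moved them, and the series matrix values lay close to those after quantile normalization. The second Pfkp probe, which went the opposite way, is not among the alternatives.

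**Figure D4:**
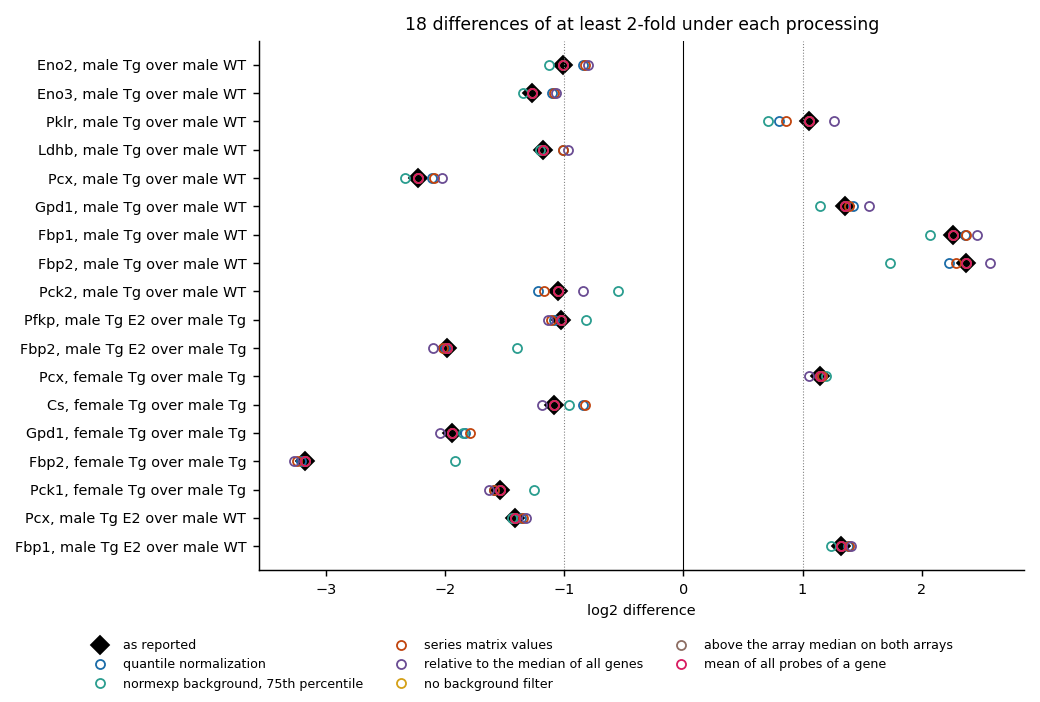
The 18 differences of at least 2-fold as reported (diamonds) and under the 7 alternatives (circles), with dotted lines at 2-fold on the log2 axis. For Pcx in male Tg over male WT the values run from -2.34 to -2.03, and for Fbp2 in female Tg over male Tg from -3.27 to -1.92.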

How the data were processed

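Per the file headers, the deposited scanner files hold linear Cy3 intensity per spot, background-subtracted and detrended by Feature Extraction 10.7.1.1 (9.5.1.1 per the submitters' processing notes), with 0 or 1 flags for outliers and for spots well above background. Probe positions refer to mm9. The deposited series matrix holds linear intensity whose quantiles are equal over the 4 columns (median 25.9 in each), as after quantile normalization, which no source used here states.

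Spots with an outlier flag (103 to 125 per array) were left out, 0 spots were saturated, and log2 values were averaged per probe. The 75th percentile over 55681 non-control probes was subtracted on each array (processed intensity 202 to 365). Between 48.5% and 53.8% of probes were well above background, and probes spotted 10 times had a median SD of 0.0656 to 0.0752 log2. A difference was measured where the probe was well above background on both arrays, and called at 2-fold. An "at least" value uses the higher of the dim probe's own level and the lowest level well above background on that array. Genes named with all levels are the members past 2-fold in any comparison. Names were resolved through the RefSeq table of GRCm38.p6. The calls were run with Python 3.11.15 on simulated data with changes well past 2-fold and noise of the size between spots. That run covers neither differences near 2-fold nor variation between arrays or mice. The quantile and normexp alternatives came from limma 3.58.1. Members, gene lists and pairs were chosen with earlier results of these data known. With 1 array per group no test and no leaving out of a replicate was possible, and arrays limit precision by their number.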

Additional observations from a re-analysis of the deposited data

How the results depend on the processing

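The alternatives were quantile normalization, normexp background modelling, the series matrix values, differences relative to the median of all genes, no background filter, only probes above the array median, and the mean of all probes of a gene. Differences relative to the median of all genes gave 2 lower members and a median of 0.18 log2 in male Tg over male WT, and 4 lower members in male Tg E2 over male Tg. Normexp gave 1 lower member in male Tg E2 against male Tg, and without the background filter 2 members were higher in male Tg E2 over male WT. In all, 79 of the 84 alternative values of counts and medians stayed within 1.5 times or within the error, and 5, given here, did not. The members' median kept its sign under all 7 alternatives in male Tg E2 over male Tg (-0.23 to -0.01), in female Tg over male Tg (-0.41 to -0.15) and male Tg E2 over male WT (-0.21 to -0.09), and changed sign in male Tg over male WT (-0.17 to 0.18). The centring is by construction a shift of 0.21 log2 in that comparison, and it moved the share of all called genes that were higher to 77.9%, against 64.3%. Normexp called 6.49% of all genes, against 10.6%, in male Tg E2 over male Tg, 7.63%, against 12.1%, in female Tg over male Tg and 6.90%, against 11.5%, in male Tg E2 over male WT. Without the background filter, which lets in every one of the 22191 genes, the shares were 15.1%, 16.9% and 16.4%, and 27.7%, against 24.3%, in male Tg over male WT. The cause of the other changes was not tested. Comparing each other probe of a gene was chosen after seeing the data. No paired analysis was possible because the labels give 1 array per group and no replicate numbers. Between the 5 scalings, 6 of 36 members differed in sign in male Tg over male WT (Gapdh, Pkm, Pdha1, Idh3b, Sucla2 and Suclg1), 7 of 37 for male Tg E2 over male Tg, 1 of 35 in female Tg over male Tg (Suclg1) and 8 of 36 in male Tg E2 over male WT. Signal over background limits Hk2, Pklr and Pgam2.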

Other observations

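The pentose phosphate pathway, which branches from glucose 6-phosphate, was among the most even routes examined. Of its 7 genes, all were measured and 0 passed 2-fold in any of the 4 comparisons, with values from -0.44 (G6pdx) to 0.74 (Pgd) log2 in male Tg over male WT and from -0.61 to 0.10 in male Tg E2 over male Tg. In the malate-aspartate shuttle, which carries cytosolic NADH beside the glycerol phosphate shuttle, Got1 was at 0.22, Got2 at -0.39, Slc25a11 at 0.03, Slc25a12 at -0.59 and Slc25a13 at 0.33 in male Tg over male WT, against 1.36 for Gpd1.

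The mitochondrial pyruvate carrier genes Mpc1 and Mpc2 were at -0.45 and -0.03 log2 in male Tg over male WT, and the malic enzyme genes Me1, Me2 and Me3 at 0.17, 0.18 and -0.10, while Pcx was at -2.23 and Acly, which splits exported citrate, at -1.03. Me1, Me2 and Me3 were at 0.12, -0.38 and 0.74 in male Tg E2 over male Tg, where Pcx was at 0.82 and Acly at 0.56.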
